A study of Mus musculus with 4 samples.

Results

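The G1 cyclins and the inhibitors of cyclin-dependent kinases were followed in primary mouse macrophages in which Hells had been depleted. The members were chosen by symbol: the D cyclins Ccnd1, Ccnd2 and Ccnd3, the E cyclins Ccne1 and Ccne2, the CIP/KIP inhibitors Cdkn1a, Cdkn1b and Cdkn1c, and the INK4 inhibitors Cdkn2c and Cdkn2d. All 10 were among the 17194 gene symbols of the count table, and all 10 were among the 15651 genes that passed the filter on low counts. The siHells group (2 libraries) consisted of bone marrow-derived macrophages that received an siRNA against Hells, and the siControl group (2 libraries) of the same kind of cells, labelled siControl. Both groups had been given RANKL, the cytokine that turns these precursors into osteoclasts, for 2 days, and polyadenylated RNA was sequenced. The labels do not give strain, age, number of animals or siRNA sequences. Nor do they say that replicates came from separate cultures, and the p-values then measure no more than the spread between 4 libraries, which may be technical.

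D cyclins bind Cdk4 and Cdk6 when growth factors such as CSF1 act on a cell, and the complexes phosphorylate the retinoblastoma protein. E2F factors are then released and switch on genes of DNA synthesis, the E cyclins among them, and cyclin E with Cdk2 carries the cell into S phase. INK4 proteins block Cdk4 and Cdk6, whereas CIP/KIP proteins act mainly on Cdk2 complexes and can also help D cyclins to assemble with their kinases. Macrophage precursors divide in response to CSF1 and leave the cell cycle as they become osteoclasts, a step to which p21 (the product of Cdkn1a) and p27 (the product of Cdkn1b) have been tied in mouse cultures. Hells, also known as Lsh, belongs to the SNF2 family of chromatin remodellers and helps DNA methylation to be laid down, and in mouse embryos it has been linked to the silencing of the imprinted gene Cdkn1c.

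Total counts were between 48873635 and 55642819 per library. A count of 3 thus stood for 0.0539 to 0.0614 CPM, the count scaled to library size, before TMM scaling. The chi-square per degree of freedom between the libraries of a group was 6.26 in siHells and 3.45 in siControl, above the 1 that counting error alone gives. Hells itself, the check of the labels, had 15.2 and 14.6 CPM in siHells libraries, against 29.3 and 29.99 CPM in siControl libraries (log2 fold change -0.99, SE 0.068, adjusted p = 6.00e-09). All levels are CPM after TMM scaling, log2 fold changes are siHells over siControl, and adjusted p-values are from edgeR's quasi-likelihood fit, by the Benjamini-Hochberg method over all 15651 genes, with a threshold of 0.05. The marker counts that follow stand beside 29.0% of all genes tested called higher and 29.5% called lower. Of 12 macrophage markers 11 rose and 1, Cd68, fell. All 11 osteoclast markers fell, to a summed level of 1554 and 1509 CPM in siHells libraries, against 8829 and 8900 CPM in siControl libraries. Among 13 stromal markers tested 10 rose and 1, Col3a1, fell, and their summed level was 2431 and 2369 CPM in siHells libraries, against 1361 and 1389 CPM in siControl libraries. Lum, also a stromal marker, was not among the table's symbols. Of 8 neutrophil markers tested 5 fell and 1 rose. Their summed level was 411 and 388 CPM in siHells libraries, against 482 and 490 CPM in siControl libraries. Ly6g, also a neutrophil marker, was not among the symbols either. Of 10 lymphocyte and erythroid markers 1, Nkg7, was in the table, at 0.332 and 0.149 CPM in siHells libraries, against 0.400 and 0.559 CPM in siControl libraries. In bulk RNA, fewer cells of a type and less RNA per cell cannot be told apart.

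Among the members, 5 rose and 3 fell in siHells, and 2 did not pass the threshold. Over all genes tested, 58.5% passed it, 29.0% higher and 29.5% lower, so a single call is common here. The level did not overlap between the groups in 9 members, 6 of them higher and 3 lower in siHells. Over all genes tested the groups did not overlap in 78.5%, with 39.1% higher and 39.4% lower. The median log2 fold change of the members was 0.21, against 0.00 over all genes. All 3 D cyclins, Cdkn1a and Cdkn1b were higher, whereas Ccne1, Cdkn1c and Cdkn2c were lower.

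**Figure D1:**
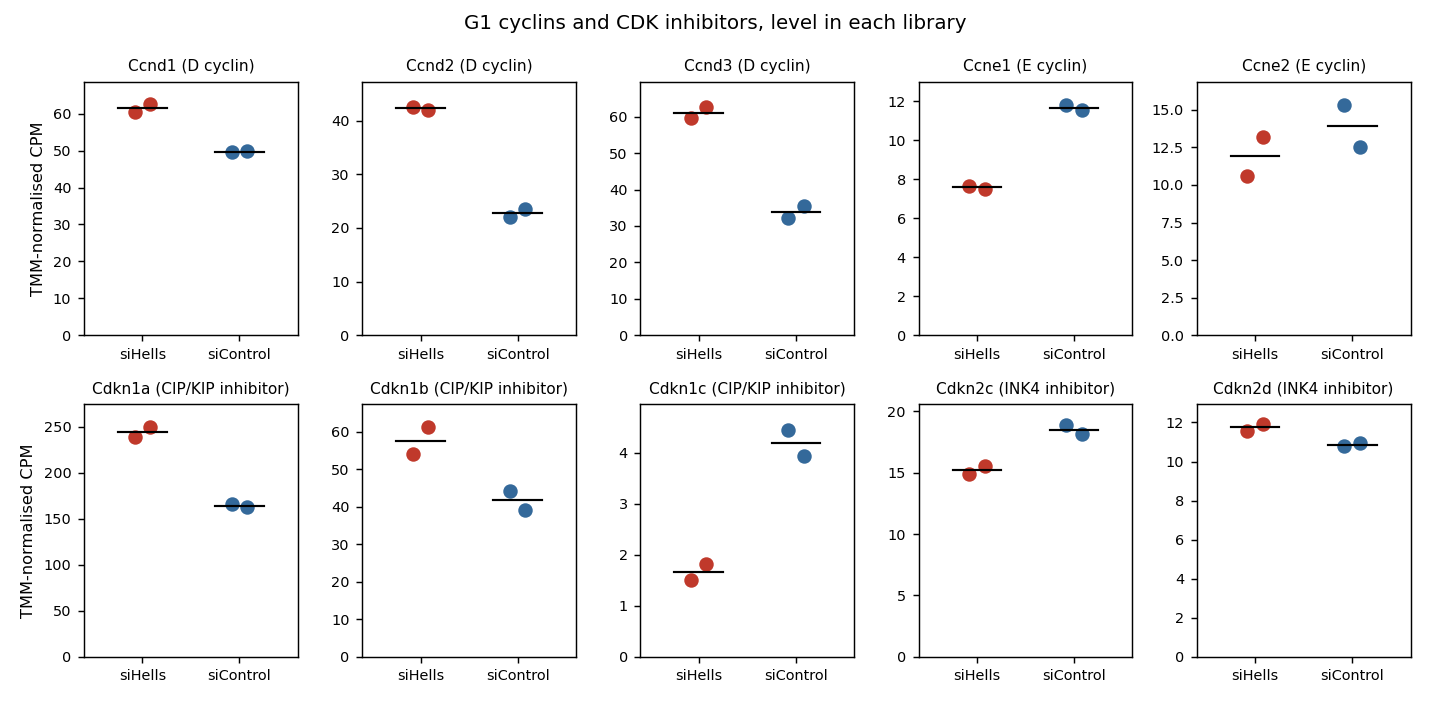
Level of each member in TMM-normalised CPM (y axis, from 0, own scale per panel) in each library of siHells and siControl (points) with the group mean (line). The groups are apart in every panel but that of Ccne2, where the siHells libraries had 10.6 and 13.2 CPM and the siControl libraries 15.4 and 12.5 CPM.

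**Figure D2:**
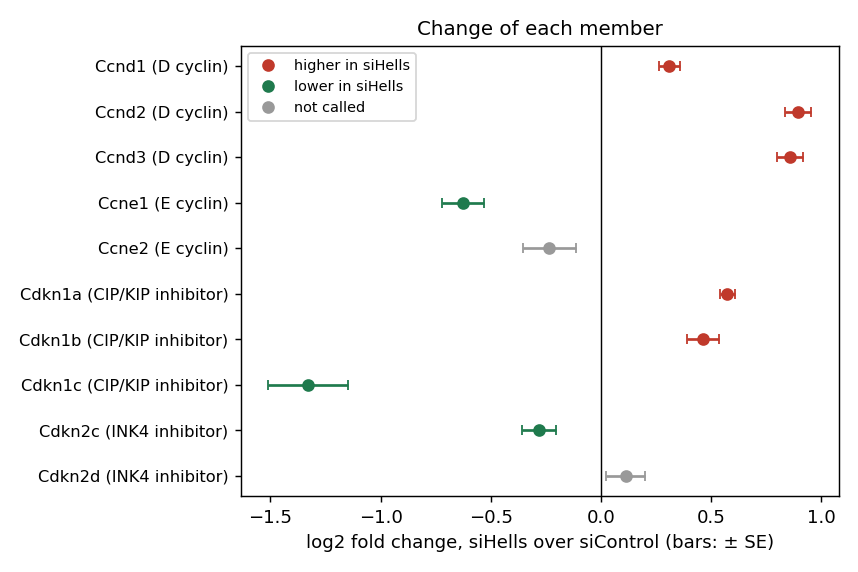
Log2 fold change of each member, siHells over siControl, with its standard error (bars); colours give the call at an adjusted p of 0.05. The D cyclins, Cdkn1a and Cdkn1b lie right of 0, and Ccne1, Cdkn1c and Cdkn2c lie left of it.

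The stretches upstream of transcription starts are shown for Ccnd3, Cdkn1a and Cdkn1b, which rose, and for Ccne1, which fell. No upstream window was available for Ccnd1, Ccnd2, Ccne2 and Cdkn1c. The windows of Cdkn2c, which also fell, and of Cdkn2d are not printed. For Ccnd3 the stretch shown is that of the distal start, and the window of a proximal start at 47593467 is not printed. The stretches shown are from RefSeq, build GRCm38.p6, 5′ to 3′ on the strand of the gene, and hold no annotated exon of that gene. The proximal Cdkn1a stretch lies inside the gene, which begins at 29090976. Capitals mark GC boxes (GGGCGG, bound by Sp1 family proteins), CCAAT boxes (CCAAT), read on both strands, and in the distal Cdkn1a stretch a match to the p53 response element.
Ccnd3, chr17:47504801-47505050, plus strand: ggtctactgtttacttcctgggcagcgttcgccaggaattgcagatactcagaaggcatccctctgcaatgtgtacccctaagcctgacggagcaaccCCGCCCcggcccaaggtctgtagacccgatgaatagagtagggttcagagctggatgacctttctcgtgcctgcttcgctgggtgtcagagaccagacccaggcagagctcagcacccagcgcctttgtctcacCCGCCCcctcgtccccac
Cdkn1a, distal start, chr17:29090729-29090975, plus strand: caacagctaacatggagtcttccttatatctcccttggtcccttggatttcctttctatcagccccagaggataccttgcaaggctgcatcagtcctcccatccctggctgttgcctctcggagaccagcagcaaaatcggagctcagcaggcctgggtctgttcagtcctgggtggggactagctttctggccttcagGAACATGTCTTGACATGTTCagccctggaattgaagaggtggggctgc
Cdkn1a, proximal start, chr17:29093519-29093768, plus strand: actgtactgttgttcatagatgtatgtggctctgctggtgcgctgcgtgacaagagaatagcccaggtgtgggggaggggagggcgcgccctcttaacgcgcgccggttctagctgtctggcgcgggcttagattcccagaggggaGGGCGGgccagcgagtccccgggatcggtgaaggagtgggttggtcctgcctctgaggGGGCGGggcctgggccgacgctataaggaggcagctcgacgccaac
Cdkn1b, chr6:134920151-134920400, plus strand: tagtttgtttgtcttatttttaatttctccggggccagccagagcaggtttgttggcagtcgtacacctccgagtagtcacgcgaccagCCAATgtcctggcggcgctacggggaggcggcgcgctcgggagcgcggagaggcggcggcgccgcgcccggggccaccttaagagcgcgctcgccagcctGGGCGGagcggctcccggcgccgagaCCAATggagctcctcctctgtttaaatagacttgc
Ccne1, chr7:38107535-38107740, minus strand: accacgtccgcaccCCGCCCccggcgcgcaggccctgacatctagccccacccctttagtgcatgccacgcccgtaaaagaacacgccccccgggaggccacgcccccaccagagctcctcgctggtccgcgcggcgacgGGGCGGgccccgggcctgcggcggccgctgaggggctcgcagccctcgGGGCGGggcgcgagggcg

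The distal start of Cdkn1a lies 2790 bases upstream of the proximal one, and its stretch holds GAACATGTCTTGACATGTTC, which departs from the p53 response element at 1 position outside its core letters. Such a match, on either strand, with at most 1 departure and no spacer, was found in 15 of 32851 upstream windows of 250 bases, which is 0.0457%. Of the windows of the members, only that of the distal Cdkn1a start held such a match. The proximal Cdkn1a stretch held 2 GC boxes and the distal one none. A GC box was found in 7 of the 9 windows that the table gives for 6 members, against 32.7% of all windows, and a CCAAT box in 3 of the 9, against 33.8% of all. The E2F spelling TTCCCGC occurred in 3.82% of all windows and in 1 of the 9, that of Cdkn2c. The spelling TTGGCGC (1.97% of all windows) was in none of the 9, nor was the spelling TTCGCGC (1.28%). The E-box CACGTG, at 6.02% of all windows, was found in none of the 9. The windows differed in CpG dinucleotides, the letters that DNA methylation acts on. The whole 250-base Ccne1 window, part of it exon and not printed, held 34 of them and that of Cdkn1b 28. The proximal Cdkn1a window held 19 and the distal one 2, and the printed Ccnd3 window held 11. The proximal Ccnd3 window, not printed, held 19, with 1 GC box and 1 CCAAT box. The median of all windows was 6. Methylation was not measured here, and a match is a match of letters only.

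The D cyclins rose, all 3 of them. Ccnd2, the D cyclin that mouse B cells induce on mitogen signals, had 42.7 and 41.9 CPM in siHells libraries, against 22.05 and 23.5 CPM in siControl libraries. It was 1.86-fold higher (log2 fold change 0.90, SE 0.060, edgeR adjusted p = 4.12e-09). Ccnd3, the D cyclin that immature lymphocytes of mice need to expand, had 59.6 and 62.8 CPM in siHells libraries, against 32.1 and 35.5 CPM in siControl libraries. Its rise was nearly as large, 1.81-fold (log2 fold change 0.86, SE 0.058, edgeR adjusted p = 4.61e-09). Ccnd1, the D cyclin best known as a target of growth factor signals, had 60.4 and 62.8 CPM in siHells libraries, against 49.5 and 49.8 CPM in siControl libraries. Its rise was smaller, 1.24-fold (log2 fold change 0.31, SE 0.048, edgeR adjusted p = 4.44e-05). In each of these genes both siHells libraries were above both siControl libraries.

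The stromal and macrophage marker lists moved in the same direction as the D cyclins. The summed stromal markers are given above, and the 12 macrophage markers had a summed level of 32167 and 31141 CPM in siHells libraries, against 18051 and 18168 CPM in siControl libraries. No gene in the table, marker or not, had a count of 0, so the lack of a 0 says nothing of the markers. The part of these markers, and of the osteoclast markers that fell, in the results for the members was not tested. Ccnd1 spans positions 144929931 to 144939925 of chromosome 7 of GRCm38 on the minus strand, and its end is overlapped on the opposite strand by LTO1, whose level was 23.0 and 22.7 CPM in siHells libraries and 17.9 and 16.3 CPM in siControl libraries. LTO1 was called higher as well (log2 fold change 0.42), and without a stated strand setting reads in the shared stretch cannot be told apart. Ccnd3, at 47505051 to 47599691 of chromosome 17 on the plus strand, is overlapped by Bysl, which fell (log2 fold change -0.35). A processed pseudogene, Ccnd3-ps, matches 881 bases of Ccnd3 transcripts at 96.3% identity and could share reads with it. Ccnd2, at 127125162 to 127152193 of chromosome 6 on the minus strand, is overlapped by the antisense genes Gm43126 and 9330179D12Rik, neither of which was used here.

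Summed per kilobase of exon, the D cyclins reached 24.2 and 24.9 CPM per kilobase in siHells libraries, against 16.5 and 17.1 in siControl libraries. The length is that of all annotated exons of a gene merged: 4709 bases for Ccnd1, 9409 for Ccnd2 and 8775 for Ccnd3. It can exceed the length of the transcript in use, so sums, shares and order depend on this choice. In CPM not divided by length, the means of Ccnd1 and Ccnd3 were 61.6 and 61.2 in siHells, and 49.7 and 33.8 in siControl. By the merged length, Ccnd1 was the most abundant D cyclin in every library. Its share of the sum was 53.1% and 53.4% in siHells libraries, against 63.7% and 61.8% in siControl libraries. The share of Ccnd3 was 28.1% and 28.7% in siHells libraries, against 22.2% and 23.6% in siControl libraries, and that of Ccnd2 was 18.8% and 17.9%, against 14.2% and 14.6%. For each of these shares the groups were further apart than the libraries of a group. Sums, shares and ratios of classes are given as values, since with 2 libraries against 2 an exact two-sided permutation test cannot go below p = 0.333.

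**Figure D3:**
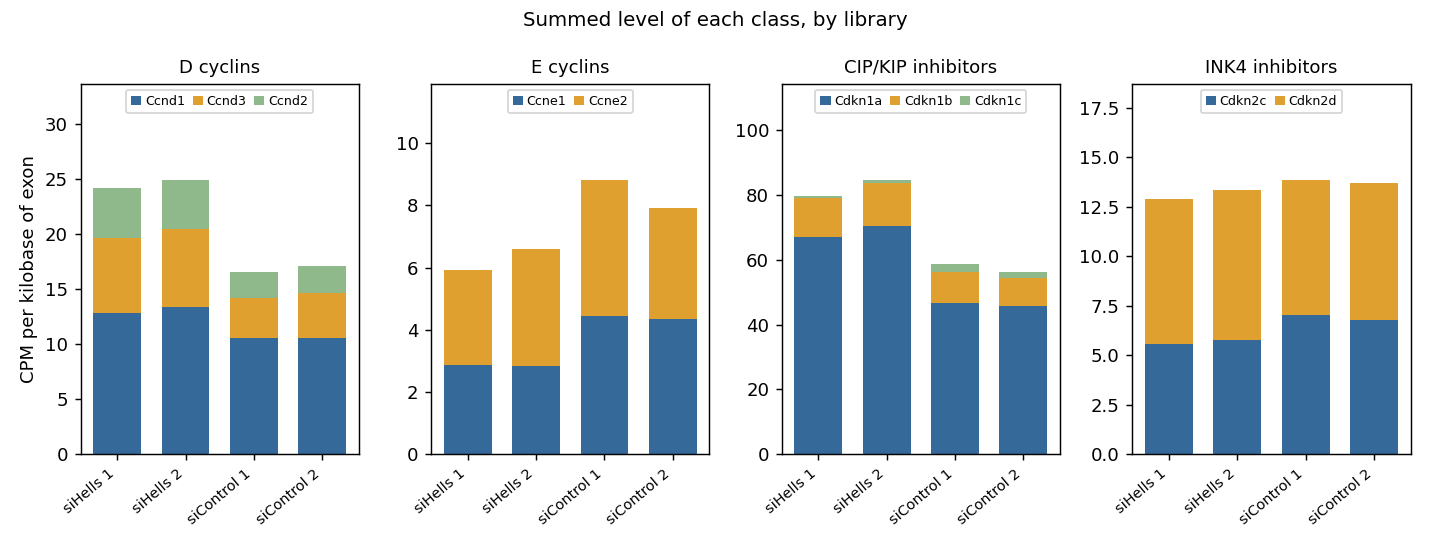
Summed level of each class in CPM per kilobase of exon (y axis, from 0) in each library, siHells left of siControl, with the part of each gene stacked in colour. The D cyclin and CIP/KIP bars are taller in siHells (24.2 and 24.9 for D cyclins), the E cyclin bars are shorter, and the INK4 bars differ least.

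The E cyclins did not follow the D cyclins. Ccne1, which encodes cyclin E1, the activating partner of Cdk2 at the entry into S phase, had 7.64 and 7.53 CPM in siHells libraries, against 11.8 and 11.6 CPM in siControl libraries. It was 1.54-fold lower (log2 fold change -0.62, SE 0.096, edgeR adjusted p = 4.65e-05), and its libraries lay close together within each group. The gene lies at 38097984 to 38107534 of chromosome 7 on the minus strand, with no annotated gene overlapping it. Ccne2, which encodes cyclin E2, had 10.6 and 13.2 CPM in siHells libraries, against 15.4 and 12.5 CPM in siControl libraries. These groups overlapped, and the difference did not pass the threshold (log2 fold change -0.23, SE 0.12, edgeR adjusted p = 0.118). It passed without siHells replicate 2, with a log2 fold change of -0.39, and without siControl replicate 2, with -0.36. Without replicate 1 of either group it was -0.08 and did not pass. Ccne2, at 11191351 to 11204779 of chromosome 4 on the plus strand, shares sequence with Ints8 on the opposite strand, which fell (log2 fold change -0.21).

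The sums of the D and the E cyclins differed in direction. The summed E cyclins were 5.91 and 6.598 CPM per kilobase in siHells libraries, against 8.83 and 7.93 in siControl libraries. The ratio of the D cyclin sum to the E cyclin sum was 4.09 and 3.78 in siHells libraries, against 1.87 and 2.16 in siControl libraries. The groups did not overlap in this ratio, both terms of which come from the same libraries. Its size depends on the merged exon lengths.

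Of the CIP/KIP inhibitors, Cdkn1a and Cdkn1b rose and Cdkn1c fell. Cdkn1a encodes p21, the inhibitor best known as a target of p53. It had 239 and 250 CPM in siHells libraries, against 166 and 163 CPM in siControl libraries, 1.49-fold higher (log2 fold change 0.57, SE 0.035, edgeR adjusted p = 1.49e-09). Its siHells libraries lay well above its siControl libraries, and its standard error was the smallest among the members. Cdkn1b encodes p27, which accumulates in resting cells. It had 54.0 and 61.3 CPM in siHells libraries, against 44.3 and 39.1 CPM in siControl libraries, 1.38-fold higher (log2 fold change 0.47, SE 0.072, edgeR adjusted p = 0.000156). On the log2 scale, libraries within each group were further apart for Cdkn1b than for Cdkn1a, though the groups did not overlap.

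Cdkn1c encodes p57 and is an imprinted gene, expressed from the maternal copy. It had 82 and 98 counts in siHells libraries, against 244 and 197 counts in siControl libraries. In CPM it had 1.51 and 1.83 in siHells libraries, against 4.44 and 3.94 in siControl libraries, 2.51-fold lower (log2 fold change -1.33, SE 0.18, edgeR adjusted p = 1.28e-05). This was the largest change among the 10 members, at the lowest level. The ratio of its summed counts, siControl over siHells after scaling, was 2.52, with an exact binomial 95% interval of 2.11 to 3.01 that covers counting error only. An absolute log2 fold change at or below that of Cdkn1c was found for 92.4% of the genes tested. The gene lies at 143458339 to 143461050 of chromosome 7 on the minus strand and is overlapped by the antisense gene Gm44732, which was not used here.

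Cdkn1a made up most of its class and Cdkn1c little of it. The CIP/KIP inhibitors together had 79.8 and 84.8 CPM per kilobase in siHells libraries, against 58.6 and 56.3 in siControl libraries. Cdkn1a made up 84.2% and 83.1% of that in siHells libraries, against 79.7% and 81.3% in siControl libraries. Cdkn1c made up 0.929% and 1.06% in siHells libraries, against 3.72% and 3.43% in siControl libraries. Relative to the D cyclins the CIP/KIP sum overlapped between the groups, at a ratio of 3.30 and 3.40 in siHells libraries, against 3.54 and 3.29 in siControl libraries. Relative to the E cyclins it did not overlap, at 13.5 and 12.8 in siHells libraries, against 6.63 and 7.10 in siControl libraries.

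Of the INK4 inhibitors, Cdkn2c fell and Cdkn2d did not pass the threshold. Cdkn2c, which encodes p18 and restrains Cdk4 and Cdk6, had 14.9 and 15.5 CPM in siHells libraries, against 18.9 and 18.1 CPM in siControl libraries. It was 1.22-fold lower (log2 fold change -0.28, SE 0.076, edgeR adjusted p = 0.00506). Cdkn2d, which encodes p19 of the INK4 family, had 11.6 and 11.9 CPM in siHells libraries, against 10.8 and 10.9 CPM in siControl libraries. Although these groups did not overlap, the difference did not pass the threshold (log2 fold change 0.11, SE 0.089, edgeR adjusted p = 0.292). Together they had 12.9 and 13.4 CPM per kilobase in siHells libraries, against 13.9 and 13.7 in siControl libraries. Cdkn2c lies at 109660876 to 109667189 of chromosome 4 and Cdkn2d at 21288410 to 21291407 of chromosome 9, both on the minus strand with no annotated gene overlapping them, and neither does one overlap Cdkn1b at 134920401 to 134925513 of chromosome 6 on the plus strand. Cdkn1a, at 29090976 to 29100727 of chromosome 17 on the plus strand, is overlapped by the unclassified AC167363.2, which was not used here.

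Per kilobase of exon, the order of the members changed between the groups. In siHells it ran Cdkn1a, Ccnd1, Cdkn1b, Cdkn2d, Ccnd3, Cdkn2c, Ccnd2, Ccne2, Ccne1 and Cdkn1c, from 68.8 ± 2.27 for Cdkn1a to 0.819 ± 0.109 CPM per kilobase for Cdkn1c (SD, n = 2). In siControl it ran Cdkn1a, Ccnd1, Cdkn1b, Cdkn2d, Cdkn2c, Ccne1, Ccne2, Ccnd3, Ccnd2 and Cdkn1c, from 46.2 ± 0.604 to 2.05 ± 0.174 CPM per kilobase (SD, n = 2). The neighbours Ccnd1 and Cdkn1b overlapped in siHells, and in siControl so did Cdkn2d and Cdkn2c, Ccne1 and Ccne2, and Ccne2 and Ccnd3. Ccnd3 and Ccnd2 stood above both E cyclins in siHells and below them in mean level in siControl. That order rests on the merged exon lengths. In CPM not divided by length, the siControl means were 33.8 for Ccnd3 and 22.8 for Ccnd2, against 11.7 for Ccne1 and 13.9 for Ccne2. Cdkn1a was at the 95.7th percentile of 14583 genes with a known exon length in siHells and at the 93.2nd in siControl, and Cdkn1c at the 21.8th and the 33.0th.

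The partners and targets of these cyclins were read from lists of the same pathway. The counts of every list that follows stand beside 29.0% of all genes tested called higher and 29.5% called lower. Among the kinases and retinoblastoma family genes 2 of 6 rose and 2 fell. Rb1, the retinoblastoma gene, had 89.5 and 96.4 CPM in siHells libraries, against 61.4 and 56.2 CPM in siControl libraries (log2 fold change 0.66, edgeR adjusted p = 3.71e-08), and Rbl2, the family member that represses genes in resting cells, rose with a log2 fold change of 0.44. Cdk4, the kinase partner of D cyclins, had 116 and 113 CPM in siHells libraries, against 154 and 152 CPM in siControl libraries (log2 fold change -0.41, edgeR adjusted p = 1.06e-07), and Rbl1, the family member that is highest in dividing cells, fell with -0.47. The levels of Cdk6 and Cdk2 did not pass the threshold, with log2 fold changes of -0.06 and -0.12. The D cyclins were thus higher and their partner Cdk4 lower in the same libraries. Of 10 E2F and DP factors 1 rose, E2f5 (0.33), and 2 fell, E2f8 (-0.33) and E2f6 (-0.18).

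Most of the listed genes that act after the G1 cyclins fell. Of 22 genes known as E2F targets at the entry into S phase 19 fell and none rose, with a median log2 fold change of -0.45, against 0.00 over all genes. Among them were Rrm1, a subunit of ribonucleotide reductase (-0.55), Mcm5, a subunit of the replicative helicase (-0.69), and Tk1, thymidine kinase (-0.84). Those that did not pass were Orc1 (-0.36), Slbp (-0.11) and Cdc25a (-0.11). All 5 genes listed for the later phases fell, with a median of -0.71. Ccnb1, the mitotic cyclin B1, had 24.3 and 27.6 CPM in siHells libraries, against 51.6 and 51.2 CPM in siControl libraries (log2 fold change -0.99, edgeR adjusted p = 2.29e-09). Ccna2, the cyclin of S and G2 phase, fell with -0.55, Ccnb2 with -0.71, Ccnf with -0.87 and Cdk1, the mitotic kinase, with -0.67. Ccne1 had the direction of the later cyclins and the D cyclins had the opposite one. Of 18 other cyclins and kinase partners, most of them tied to transcription or splicing rather than to the cycle, 10 rose and 2 fell, with a median of 0.20. Ccnl1 (0.37), Ccni (0.30) and Ccng1, a p53 target (0.37), were among the rises, and Mnat1 (-0.27) and Cdk8 (-0.20) were the falls.

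**Figure D4:**
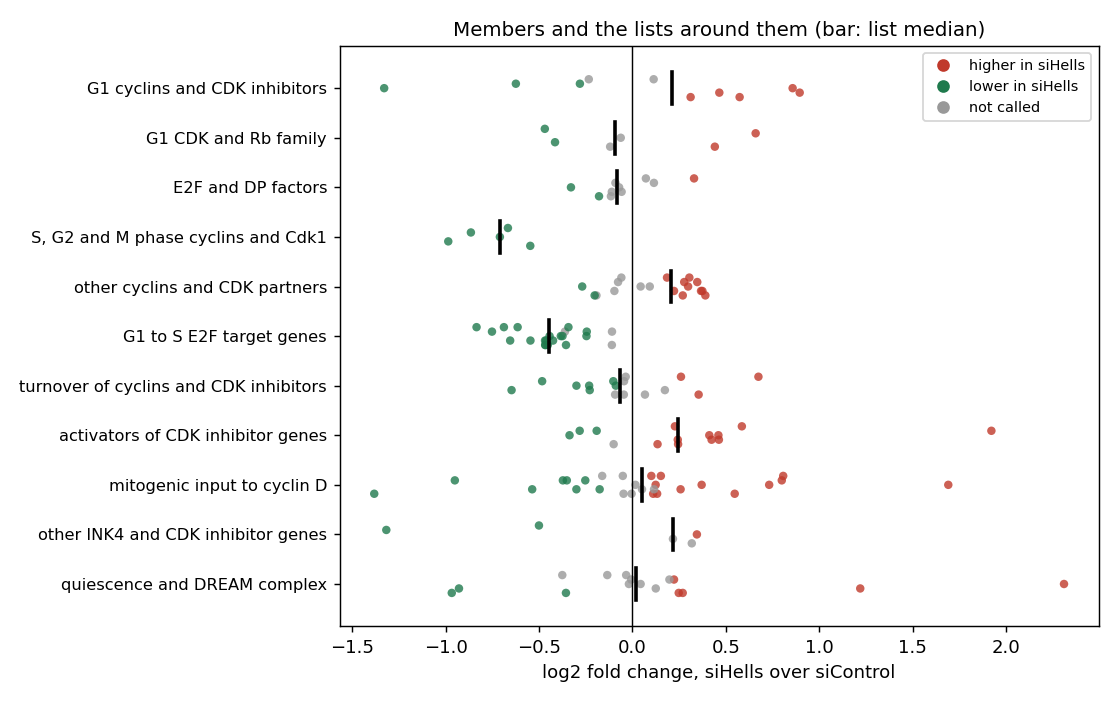
Log2 fold change, siHells over siControl (x axis), of each gene of the members and of 10 lists around them (rows), with the list median as a bar and the call in colour. The E2F target genes and the later cyclins lie left of 0, with medians of -0.45 and -0.71, and the members lie on both sides.

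Upstream of the inhibitors, 10 of 14 genes in the list of activators of inhibitor genes rose and 3 fell, with a median log2 fold change of 0.24. The rises include Mdm2 (0.13) and Mdm4 (0.24), which restrain p53 and are not activators. Trp63 and Trp73, also listed, were not among the table's symbols. Klf4, a factor that activates Cdkn1a, had 30.9 and 28.4 CPM in siHells libraries, against 8.42 and 7.17 CPM in siControl libraries (log2 fold change 1.92, edgeR adjusted p = 5.10e-11). Klf6, also an activator of Cdkn1a, rose with 0.59 and Foxo3, an activator of Cdkn1b, with 0.46. The falls were Trp53, the p53 gene (-0.34), Nr3c1, the glucocorticoid receptor (-0.28), and Zbtb17, known as Miz1 (-0.19). Upstream of the D cyclins, 12 of 27 genes of mitogen signalling rose and 8 fell, with a median of 0.05. Csf1r, the CSF1 receptor (0.73), which is also counted among the macrophage markers, and the PI3 kinase subunits Pik3cd (0.80) and Pik3cg (0.81) rose. So did Gsk3b (0.13), a kinase of the list that promotes the degradation of cyclin D1. The 8 falls ran from Kit, the stem cell factor receptor (-1.38), to Hras (-0.18). Kit was low, with 72 and 48 counts in siHells libraries, against 147 and 158 in siControl libraries. The transcription factors of the list were split. Junb (-0.95), Ets2 (-0.54) and Myc (-0.30) fell, Fosl1 (1.69), Ets1 (0.55) and Jun (0.37) rose, and Jund (-0.16) did not pass the threshold. Fosl1 was low too, with 217 and 195 counts in siHells libraries, against 56 and 68 in siControl libraries.

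Among 16 genes that control the turnover of these proteins, 3 rose and 7 fell. Cul3, a scaffold of ubiquitin ligases one of whose substrates is cyclin E, rose with a log2 fold change of 0.67. Ambra1 (0.35) and Fbxo31 (0.26), adaptors of ligases that degrade D cyclins, rose as well. Cks1b, the cofactor that Skp2 needs to degrade p27, fell (-0.65), and so did Dtl, which directs the degradation of p21 (-0.48). Skp2 itself did not pass the threshold (-0.04, edgeR adjusted p = 0.698). RNA levels say nothing of protein turnover, which was not measured here.

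Of the other genes named for inhibition of these kinases, 1 of 5 rose and 2 fell. Cdkn2b, the INK4 gene for p15, had 108 and 127 counts in siHells libraries, against 305 and 266 counts in siControl libraries. Its fall (log2 fold change -1.32, SE 0.16, edgeR adjusted p = 3.20e-06) was close in size to that of Cdkn1c. Its neighbour Cdkn2a, whose symbol covers both the p16 and the p19Arf transcripts, had 71 and 75 counts in siHells libraries, against 59 and 55 in siControl libraries, and did not pass (log2 fold change 0.32, SE 0.24, edgeR adjusted p = 0.283). Cdkn3, a phosphatase of Cdk proteins, fell (-0.50). The 1 rise was Cdkn2aipnl (0.34), which is listed for its symbol and is not itself an inhibitor of these kinases. Among 16 genes of quiescence and of the DREAM repressor complex 5 rose and 3 fell, with a median of 0.02. Over all genes tested 58.5% passed the threshold. Btg2, an antiproliferative p53 target (1.22), and Pdk4, a kinase that restrains pyruvate dehydrogenase (2.31), rose. Btg1 (-0.97), Mybl1 (-0.93) and Lin9 (-0.36) fell.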

How the data were processed

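Polyadenylated RNA of 4 libraries was analysed. The authors deposited raw counts, as whole numbers for each gene symbol, with no normalization. Build mm10, StringTie 2.1.3b, HISAT2 2.1.0, Trimmomatic 0.38, FastQC and edgeR are named, without roles, per the submitters' processing notes. The sources used here do not give the counting program, annotation or strand setting, and the labels name both a SMARTer and a TruSeq Stranded kit. The lowest deposited count was 1, with no 0 in any library. Total counts were 55642819 and 55012697 in siHells and 53502523 and 48873635 in siControl.

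Genes were kept by filterByExpr (minimum count 10, minimum total 15), which removed 1543, and tested with edgeR 4.0.16 (R 4.3.3): TMM scaling, robust quasi-likelihood fit, group as the only term. The script was tested on simulated counts. Alternatives were other scalings and filters, DESeq2 1.42.0, limma 3.58.1 voom, a block for the replicate number, leaving out each library, and a threshold of 0.01.

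Exon lengths, of all annotated exons of a gene merged, and coordinates are from GENCODE on GRCm38. Transcripts sharing at least 200 bases at 95% identity were sought with BLAST+ 2.17.0. The members and lists were chosen with earlier results of these data known. Named were all members, Hells, up to 3 genes with the smallest p per list, and, where at most 3, exceptions to a list's direction. Rbl1, Cdk2, Cdk6, Ccna2, Ccnb2, Dtl, Skp2, Kit, Junb, Ets2, Myc, Hras, Gsk3b, Mdm2, Mdm4, Cdkn2a, LTO1, Bysl, Ints8, Nkg7, Cd68 and Col3a1 were chosen after their values were seen. So were Fosl1, Ets1, Jun and Jund.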

Additional observations from a re-analysis of the deposited data

How the results depend on the processing

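The calls of Ccnd1, Ccnd2, Ccnd3, Ccne1, Cdkn1a, Cdkn1b, Cdkn1c and Cdkn2c kept their direction and passed the threshold under each of 12 alternatives. Ccne2 passed with library totals and no scaling factor (log2 fold change -0.31) and ranged from -0.394 to -0.082 when a library was left out. Cdkn2d did not pass under any of the 12. With the replicate number as a block the count of members stayed at 5 higher and 3 lower, and the genes of the list of other inhibitors called higher were 2 instead of 1. Same-numbered libraries deviated together only weakly (correlation 0.05 over genes), so the numbers are not taken to pair them, and the block moved no other count by over 1.5 times. The kinases and retinoblastoma genes called lower were 4 with library totals. The E2F and DP factors called lower were 4 with upper-quartile scaling and with library totals, 1 with the DESeq2 Wald test, 1 at a threshold of 0.01, and 0 to 2 when a library was left out (1 without siControl replicate 1 and 0 without siControl replicate 2), while those called higher were 1 to 2 (2 without siHells replicate 1). The other cyclins and partners called lower were 4 with upper-quartile scaling and with library totals, 1 at a threshold of 0.01 and 0 to 3 when a library was left out (0 without siHells replicate 1). The turnover genes called lower were 4 at a threshold of 0.01. The other inhibitors called higher were 2 with a minimum of 1 CPM in 2 libraries and 1 to 2 when a library was left out (2 without siHells replicate 1 or siControl replicate 2). The causes were not tested. Library totals moved the median log2 fold change of all genes by -0.07, the largest shift among the scalings tried. Where a library was left out, the lone library of its group was assumed to vary like the others.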
